A study of Rattus norvegicus with 20 samples.

Results

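Spink1, Spink1l, Reg1a, Reg3a, Reg3b and Reg3g are 6 genes of the exocrine pancreas, belonging to the families of Kazal-type trypsin inhibitors and Reg lectins, and they are 6 of the 14218 genes measured by probe sets with a single gene symbol. They were chosen by family, with their log2 intensity in Nr4a1 against GFP already known, so every value of that comparison below is a description without a test, and so is the comparison of Nr4a1 with Nr4a3, which uses the same Nr4a1 arrays. All 6 were measured: Spink1 by 3 probe sets and each of the others by 1.

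The samples were islets of 8-week-old male Wistar rats held in RPMI medium with 10% serum and 8 mM glucose. The groups were islets given an adenovirus for the orphan nuclear receptor Nr4a1, for its relative Nr4a3, or for green fluorescent protein (GFP), and untreated islets, with 5 arrays in each. Virus was present for 18 h and islets were collected 48 h after it was added. The titles and sample characteristics name these viruses, whereas the treatment protocol names viruses for β-galactosidase and Nkx6.1, and groups follow the titles. The labels call the 5 samples of a group biological replicates but do not say which animals they came from, so p-values cover only the spread between these samples, which may be technical. Virus was added to whole islets, and which cells it entered is not stated.

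Probe sets for the receptors themselves did not single out the labelled groups. For Nr4a1 the log2 intensity was 5.99 ± 0.12 (SD, n = 5) in arrays labelled Nr4a1 and 6.07 ± 0.09 in GFP arrays. Of the 3 Nr4a3 probe sets, the brightest averaged 5.82 ± 0.19 in arrays labelled Nr4a3, 6.07 ± 0.13 in arrays labelled Nr4a1 (log2 0.44 ± 0.10 over GFP, limma adjusted p = 0.00693) and 5.63 ± 0.17 in GFP arrays. Another averaged 5.14 ± 0.74 in arrays labelled Nr4a3, 5.39 ± 0.23 in arrays labelled Nr4a1 and 4.64 ± 0.07 in GFP arrays. The third was highest in its labelled group, with 5.38 ± 0.51 in arrays labelled Nr4a3, 5.13 ± 0.14 in arrays labelled Nr4a1 and 5.22 ± 0.12 in GFP arrays. None of the 3 passed with Nr4a3 against GFP (limma adjusted p of 0.395 to 0.706). Their position relative to the virus-borne sequence is not stated, so they check neither delivery nor labels, and Nr4a1 and Nr4a3 below stand for arrays labelled so. Nr4a3 replicate 2 stood apart, with a mean correlation with the other arrays of 0.939, against 0.981 to 0.989 for the rest, and a 3′ minus 5′ signal of beta-actin of 4.62 log2 units, against 1.497 to 2.21. The islet label fits the markers in so far as the 13 measured beta cell genes averaged 11.1 to 12.1 (log2 intensity) on every array.

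Digestive enzymes leave the acinar cell as inactive zymogens, and trypsin that forms too early can activate the others inside the cell. Spink1, the pancreatic secretory trypsin inhibitor, blocks such trypsin and is stored with the zymogens. Spink1l is its close paralogue in the rat. Reg proteins are small secreted C-type lectins. Reg1a encodes lithostathine of pancreatic juice, and the Reg3 genes encode the pancreatitis-associated proteins, which are known to rise in acinar cells in pancreatitis, downstream of STAT3 and interleukin-6 type cytokines. Reg genes were first named for their expression in regenerating islets.

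The promoters are shown because the inhibitor genes are neighbours and so are the Reg genes, and the Spink1 and Spink1l windows were aligned to show how alike they are. RefSeq (GRCr8) places Spink1 and Spink1l next to each other on chromosome 18, with 0 genes between them. The windows from 250 bases before to 50 bases after each gene's start, both on the minus strand, are chr18:36133547-36133846 for Spink1 and chr18:36086647-36086946 for Spink1l. Of 298 aligned columns 287 held identical bases (96.3%), 2 held a mismatch and 9 a gap. Capitals mark the bases that differ between both genes.

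Spink1: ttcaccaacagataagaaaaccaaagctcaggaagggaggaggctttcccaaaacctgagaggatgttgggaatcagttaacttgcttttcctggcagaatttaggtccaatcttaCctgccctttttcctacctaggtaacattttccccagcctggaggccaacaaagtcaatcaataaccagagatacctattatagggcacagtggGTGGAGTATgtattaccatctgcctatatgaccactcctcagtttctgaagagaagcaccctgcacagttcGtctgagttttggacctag
Spink1l: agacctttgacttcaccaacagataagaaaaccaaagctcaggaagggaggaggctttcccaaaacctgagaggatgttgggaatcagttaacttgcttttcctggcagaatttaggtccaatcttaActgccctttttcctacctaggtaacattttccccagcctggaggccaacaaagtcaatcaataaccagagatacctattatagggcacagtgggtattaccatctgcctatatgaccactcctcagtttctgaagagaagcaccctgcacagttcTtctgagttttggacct

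The 4 Reg genes lie on chromosome 4, with only 2 other RefSeq genes among them, a pseudogene and a long non-coding RNA. Reg3b (chr4:112419526-112419825, plus strand) and Reg3a (chr4:112430147-112430446, plus strand) are shown as the Reg genes with the largest and the smallest difference between arrays labelled Nr4a1 and GFP arrays. Reg3a has 2 listed starts, of which the first was used. Capitals mark matches to the E-box CACCTG, of the kind bound by acinar bHLH factors such as Ptf1a, and to the STAT motif TTCNNNGAA.

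Reg3b: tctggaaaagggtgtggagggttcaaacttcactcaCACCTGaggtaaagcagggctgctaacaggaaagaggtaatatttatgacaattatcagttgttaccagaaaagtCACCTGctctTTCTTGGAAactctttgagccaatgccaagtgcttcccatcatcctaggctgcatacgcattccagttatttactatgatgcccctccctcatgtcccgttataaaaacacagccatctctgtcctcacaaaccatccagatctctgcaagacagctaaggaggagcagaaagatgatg
Reg3a: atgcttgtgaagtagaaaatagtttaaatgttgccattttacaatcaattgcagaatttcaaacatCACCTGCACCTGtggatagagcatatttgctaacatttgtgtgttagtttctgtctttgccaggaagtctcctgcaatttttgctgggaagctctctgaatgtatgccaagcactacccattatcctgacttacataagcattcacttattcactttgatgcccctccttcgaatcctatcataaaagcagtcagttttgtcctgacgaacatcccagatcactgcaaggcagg

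On both strands, CACCTG occurred 2 times in Reg3b and 2 times in Reg3a and in no other of the 6 promoters, and 18.8% of 33469 RefSeq promoter windows of this length held it. TTCNNNGAA occurred in Reg3b (from base -129 relative to the start) and in Reg1a (from base -242), against 8.87% of all windows. The Nr4a monomer motif AAAGGTCA occurred in none of the 6 and in 1.43% of all windows. TATAAA occurred in Reg1a, Reg3b and Reg3g and in 14.2% of all windows. These matches are descriptions of letters in the windows. The marked matches of different motifs did not overlap.

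In arrays labelled Nr4a1 the trypsin inhibitor genes stood 12.1-fold (Spink1) and 12.8-fold (Spink1l) above GFP. The brightest Spink1 probe set, 1387193_a_at, read 11.67, 11.18, 10.64, 11.41 and 11.61 (log2 intensity, replicates 1 to 5) with Nr4a1 and 10.80, 11.41, 9.45, 9.21 and 10.09 with Nr4a3. It read 6.68, 9.12, 6.39, 9.20 and 7.17 with GFP and 8.70, 7.82, 8.09, 6.33 and 11.12 in untreated islets. Every Nr4a1 and every Nr4a3 array was above every GFP array, while untreated islets spanned nearly the whole range. Spink1 with Nr4a1 was 12.1-fold above GFP (log2 3.59 ± 0.69, SE, n = 5 per group) and 2.16-fold above Nr4a3 (1.11 ± 0.69).

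Spink1l read 9.56, 9.49, 8.24, 9.40 and 9.12 (log2 intensity) with Nr4a1 and 8.31, 8.34, 7.55, 6.64 and 7.60 with Nr4a3. It read 4.52, 6.65, 4.41, 6.54 and 5.27 with GFP and 5.67, 5.40, 6.09, 4.25 and 7.90 in untreated islets. All Nr4a1 arrays were above all GFP and all untreated arrays, and the lowest Nr4a3 array just touched the highest GFP array. The paralogue was 12.8-fold higher with Nr4a1 than with GFP (log2 3.68 ± 0.55) and 2.78-fold higher than with Nr4a3 (1.48 ± 0.55).

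The Reg genes were higher with Nr4a1 by less. Reg3b read 13.26, 13.13, 12.23, 13.54 and 13.69 (log2 intensity) with Nr4a1, against 9.44, 12.05, 10.04, 11.44 and 9.78 with GFP, a 6.14-fold difference (log2 2.62 ± 0.54). Reg1a read 12.95, 12.33, 12.15, 13.09 and 13.20 with Nr4a1, against 10.08, 11.84, 9.63, 11.77 and 9.52 with GFP, a 4.52-fold difference (log2 2.18 ± 0.55). In both genes all Nr4a1 arrays were above all GFP arrays. Reg3g, with 8.03 to 9.84 in Nr4a1 and 5.66 to 9.31 in GFP arrays, was 4.10-fold higher (2.04 ± 0.66), and Reg3a, with 9.98 to 11.94 in Nr4a1 and 8.60 to 10.95 in GFP arrays, was 2.89-fold higher (1.53 ± 0.51), each with overlapping ranges. Thus 4 of the 6 genes had non-overlapping ranges, where 10.6% of all genes lay above GFP on every Nr4a1 array, and nothing is read from this count because it is the comparison behind the choice. Of the 6, only Reg3a had all Nr4a1 arrays above all Nr4a3 arrays (log2 1.69 ± 0.51), as had 1.73% of all genes. The 3′ minus 5′ signal of GAPDH was 0.271 to 0.357 log2 units in Nr4a1 arrays and 0.499 to 0.739 in GFP arrays, and its part in these differences was not tested.

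**Figure D1:**
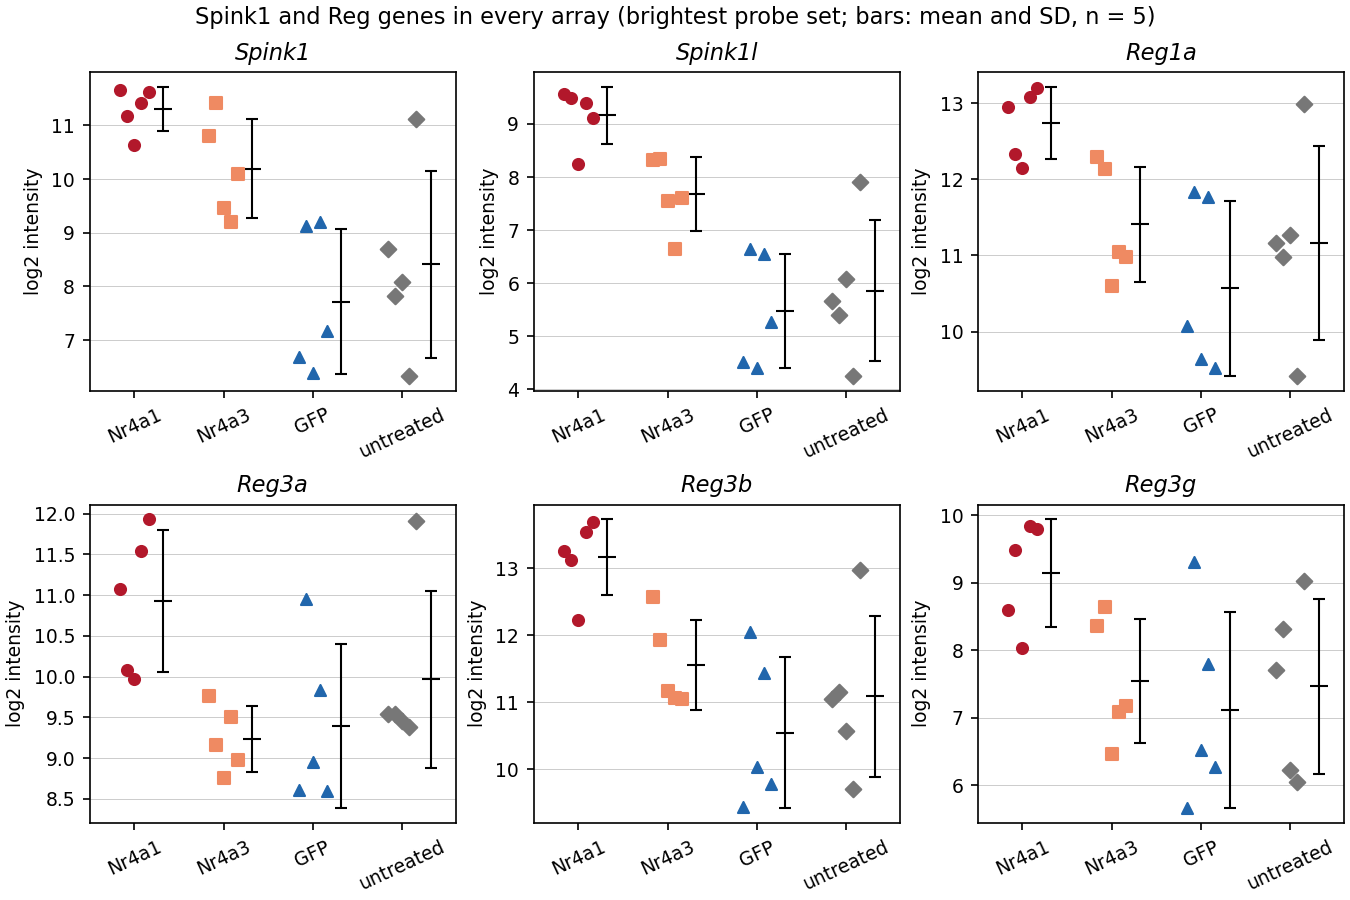
Log2 intensity of the brightest probe set of each gene, 1 point per array, with the mean and SD of 5 arrays beside each group. The Nr4a1 arrays are highest on average in all 6 genes, and untreated replicate 5 is the highest untreated array in each.

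The comparison of Nr4a3 with GFP asks what added Nr4a3 changes beyond the virus, and its Nr4a3 arrays took no part in the choice of genes, although its GFP arrays did. With the brightest probe sets only Spink1l passed, 4.62-fold higher (log2 2.21 ± 0.55, limma adjusted p = 0.0405 over all genes). Thus 1 of the 6 genes passed, against 1.75% of all genes called higher. Whether Spink1l and Spink1 differ in this was not tested. Spink1 was 5.58-fold higher (log2 2.48 ± 0.69, 95% interval 1.03 to 3.93), with every Nr4a3 array above every GFP array, as in 3.12% of all genes. The margin was narrow (lowest Nr4a3 array 9.209, highest GFP array 9.198), and the ranges overlapped on another Spink1 probe set, 1368447_x_at. Spink1 did not pass (limma adjusted p = 0.0765). The 4 Reg genes did not pass either. Reg3b differed by log2 1.01 (95% interval -0.11 to 2.12), Reg1a by 0.84 (-0.31 to 2.00), Reg3g by 0.43 (-0.94 to 1.81) and Reg3a by -0.16 (-1.22 to 0.90). Over the 6 genes the median difference was 0.93, beside 0.00 over all genes. Without Nr4a3 replicate 2, Spink1l no longer passed (log2 2.05, adjusted p = 0.0588), and Spink1 differed by 2.18 (adjusted p = 0.108). Spink1 passed in 3 of 20 such fits, without GFP replicate 4 (adjusted p = 0.0483), untreated replicate 4 (0.0495) or untreated replicate 5 (0.0240). The Spink1l call was lost in 13 of 20 fits that each left out 1 array, with adjusted p up to 0.132, and kept without Nr4a1 replicates 1 or 3, Nr4a3 replicate 4, GFP replicates 2 or 4, or untreated replicates 4 or 5. It was also lost when only the 10 arrays compared entered the fit (adjusted p = 0.0777) and with the replicate number as a block (adjusted p = 0.0638).

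Against untreated islets, which share no array with the comparison behind the choice, no gene of the 6 passed with its brightest probe set, where 1.23% of all genes were called higher. Spink1 with Nr4a3 was 3.44-fold higher (log2 1.78 ± 0.69, limma adjusted p = 0.238) and Spink1l 3.54-fold higher (1.82 ± 0.55, adjusted p = 0.117). Reg3a differed by -0.73 (95% interval -1.79 to 0.32), Reg3b by 0.47 (-0.65 to 1.59), Reg1a by 0.25 (-0.91 to 1.40) and Reg3g by 0.08 (-1.30 to 1.46). None of the 6 had separate ranges, and 1.82% of all genes had every Nr4a3 array above every untreated array. At an unadjusted p under 0.05, limma called 2 of the 6 (Spink1 and Spink1l), where 14% of all genes were called. Without untreated replicate 5 both passed, Spink1 at log2 2.46 (adjusted p = 0.0474) and Spink1l at 2.33 (adjusted p = 0.0221).

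None of the 6 genes passed with virus alone. GFP islets were below untreated islets by log2 0.35 to 0.70 in point estimate, with standard errors of 0.51 to 0.69, and every limma adjusted p rounded to 1. Across all genes 0% passed here, and 412 (2.9%) had an unadjusted p under 0.05, none of them among the 6. The order of group means was Nr4a1, Nr4a3, untreated and GFP in every gene but Reg3a, which ran Nr4a1, untreated, GFP and Nr4a3. In that order no neighbours below Nr4a1 differed past the test with the brightest probe sets.

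**Figure D2:**
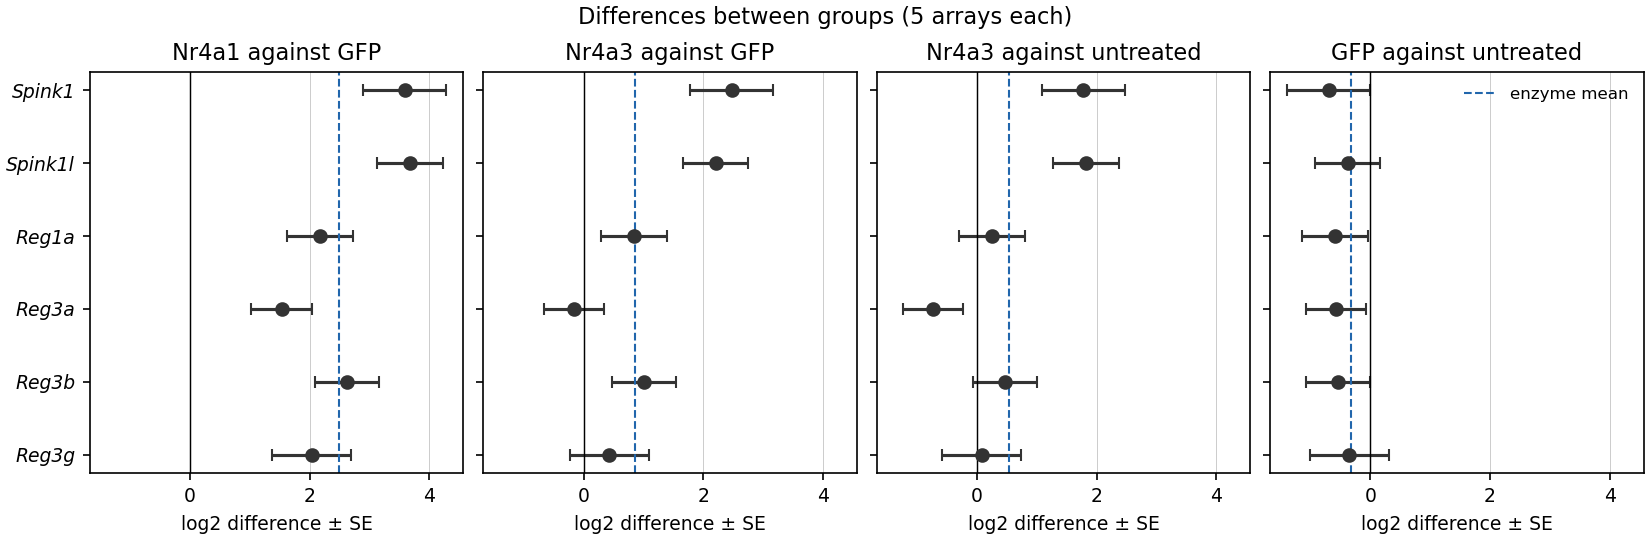
Difference in log2 intensity of each gene in 4 comparisons, points with SE bars from the fit to 20 arrays (5 per group), with the dashed line at the difference of the mean of 20 digestive enzyme genes. Spink1 and Spink1l lie to the right of the line in all comparisons that hold a receptor, and Reg3a to its left.

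The 3 probe sets of Spink1 differed in the control islets. The _x_at probe set 1368447_x_at, whose suffix in the Affymetrix naming marks probes that may also match other sequences, followed the brightest one, with 10.40 to 11.42 (log2 intensity) with Nr4a1, 8.86 to 10.72 with Nr4a3, 6.70 to 8.98 with GFP and 6.06 to 10.82 in untreated islets. The third, 1368446_at, was dim in both control groups, and no detection calls were used that would say whether it was above background there, so its differences from them may be lower bounds. It read 8.31, 8.56, 7.34, 8.40 and 7.41 with Nr4a1 and 7.04, 6.01, 6.27, 5.26 and 6.16 with Nr4a3, against 4.97, 4.62, 4.73, 4.76 and 4.72 with GFP and 4.82, 4.63, 4.93, 4.67 and 4.64 in untreated islets. The 4 sets of values fall into 3 levels without overlap: Nr4a1 above Nr4a3, and Nr4a3 above both control groups, which cover the same range. Over all probe sets, every array lay above in 8.95% with Nr4a1 against GFP, in 1.51% with Nr4a1 against Nr4a3, in 2.61% with Nr4a3 against GFP and in 1.62% with Nr4a3 against untreated islets.

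Tested over all 20832 probe sets with a single symbol, a test added after its values were seen, 1368446_at rose with Nr4a3 against GFP (log2 difference 1.39 ± 0.26, limma adjusted p = 0.00723), as 1.32% of probe sets rose. Against untreated islets it rose as well (log2 difference 1.41 ± 0.26, limma adjusted p = 0.00781), as 0.97% of probe sets rose. Both calls held in each of 20 fits that left out 1 array (adjusted p of 0.00713 and 0.00632 without Nr4a3 replicate 2), and the call against untreated islets was lost when only the 10 arrays compared entered the fit (adjusted p = 0.0832). With Nr4a1 it was above GFP by log2 3.25 ± 0.26 and 3.62-fold above Nr4a3 (1.86 ± 0.26), without a test. Where the probes of each set lie on the Spink1 transcripts or on Spink1l is not stated, so these values are those of probe sets and not of isoforms.

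Untreated replicate 5 was high on both bright Spink1 probe sets and not on the dim one. Its mean over 20 digestive enzyme genes was 10.46 (log2 intensity), inside the span of the Nr4a1 arrays (9.91 to 11.37), and it read 11.12 and 10.82 on the other Spink1 probe sets but 4.64 on 1368446_at. After group means were removed, the correlation of the 6 genes' brightest probe sets with the enzyme mean over the 20 arrays ranged from 0.61 (Reg3g) to 0.92 (Reg1a). These are descriptions over arrays that share hybridization, normalization and RNA quality.

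**Figure D3:**
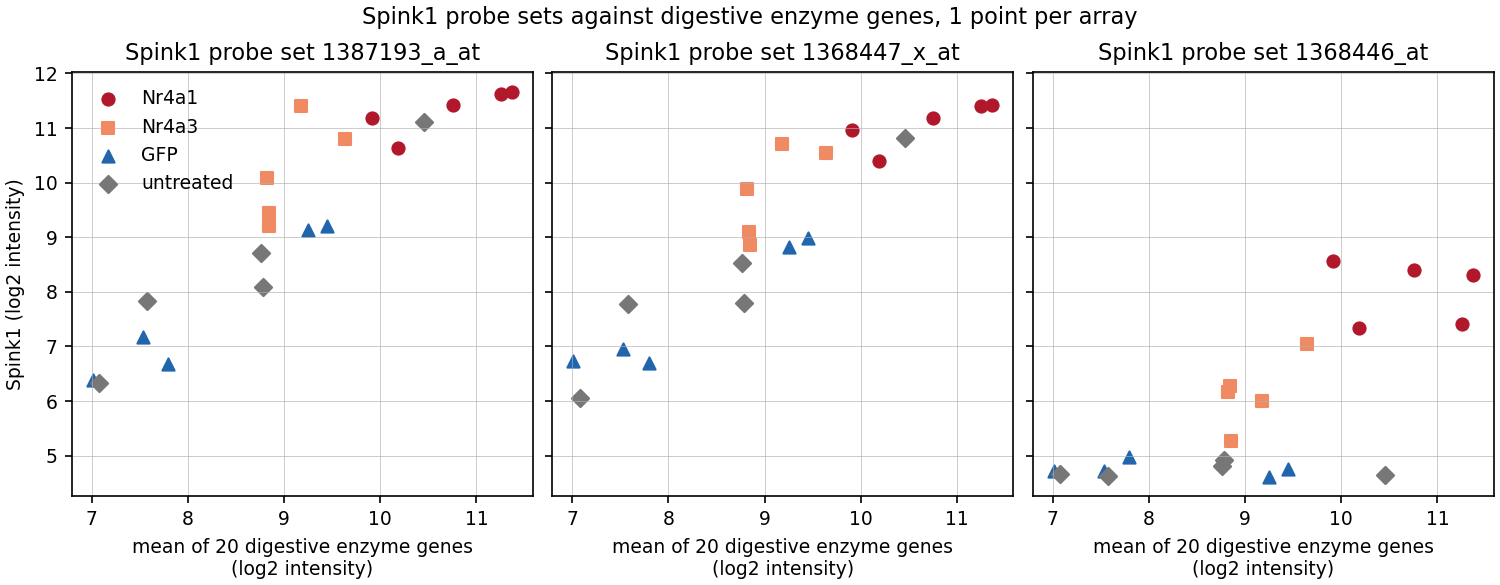
Log2 intensity of the 3 Spink1 probe sets against the mean log2 intensity of 20 digestive enzyme genes, 1 point per array and 5 arrays per group. Both bright probe sets climb with the enzyme mean in all groups, while 1368446_at stays at 4.62 to 4.97 in GFP and untreated islets, including the untreated array with an enzyme mean of 10.46.

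Most of the 6 genes varied with the enzyme genes of the same array. The mean of 20 measured genes of 27 digestive enzymes was 10.69 ± 0.64 (SD, log2 intensity, n = 5) with Nr4a1, 9.07 ± 0.35 with Nr4a3, 8.21 ± 1.08 with GFP and 8.53 ± 1.31 in untreated islets. Prss1, a trypsinogen gene, averaged 13.90 ± 0.43 with Nr4a1, 12.38 ± 0.49 with Nr4a3, 11.04 ± 1.35 with GFP and 11.34 ± 1.43 in untreated islets. In bulk islets fewer acinar cells and less RNA per acinar cell cannot be told apart, here and for all values above. In GFP islets replicates 2 and 4, and in untreated islets replicate 5, were high in every one of the 6 genes and in the enzyme mean, and untreated replicate 4 was the lowest untreated array in all of them. With Nr4a3 against GFP, 0 of 20 enzymes passed with limma (5 had an unadjusted p under 0.05, as did 12.8% of all genes) and 19 were higher in point estimate, with a median log2 difference of 0.85 and 1.34 ± 0.59 for Prss1 (limma adjusted p = 0.341). With Nr4a1 against GFP the enzyme mean was higher by 2.49. Single enzymes ranged from 0.92-fold (Klk1) to 10.56-fold (Cela2a), with Prss1 at 7.23-fold. Of the 20 enzymes, 14 were above GFP on every Nr4a1 array, as were 10.6% of all genes.

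Subtracting each array's enzyme mean asks whether a gene moved by more than the enzymes. It lowers the difference of every gene alike, by log2 0.86 with Nr4a3 against GFP and 0.53 against untreated islets. Shares of all genes on this scale depend on that shift. On this relative scale Spink1 was 0.30 to 1.27 with Nr4a1 and 0.36 to 2.23 with Nr4a3, against -1.12 to -0.13 with GFP and -0.75 to 0.66 in untreated islets. The value of 2.23 was that of Nr4a3 replicate 2, the array that stood apart. Spink1l was -2.13 to -0.42 with Nr4a1 and -2.21 to -0.84 with Nr4a3, against -3.28 to -2.26 with GFP and -3.09 to -2.17 in untreated islets. For both genes every Nr4a3 array was above every GFP array, with a narrow margin for Spink1l. Such separation held for 2 of the 6 genes, for 2 of the 20 enzymes set against the mean of the other enzymes (Prss3b and Cpb1), and for 0.0492% of all genes. That share counts 7 genes: besides these 4, they were Gucy2c, Nnat and Sct, named after their values were seen.

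The relative differences did not pass limma's test across all genes. Against GFP 2 of the 6 genes, Spink1 and Spink1l, both higher, had an unadjusted p under 0.05, where 4.63% of all genes did. Against untreated islets 3 of the 6 did, Spink1 and Spink1l higher and Reg3a lower, where 0.535% of all genes did. Nothing is read from these counts, because the shares depend on the shift that the subtraction gives every gene. With Nr4a3 against GFP, relative Spink1 was higher by log2 1.62 (95% interval 0.44 to 2.81, limma adjusted p = 0.288) and relative Spink1l by 1.35 (0.17 to 2.53, adjusted p = 0.288), where 0.0141% of all genes were called higher. Against untreated islets they were higher by 1.25 (0.06 to 2.43, adjusted p = 0.619) and 1.29 (0.11 to 2.47, adjusted p = 0.619), where 0.0211% were called. With Prss1 alone in place of the enzyme mean these differences were smaller. Spink1 was then higher by 1.14 than with GFP and by 0.73 than in untreated islets, and Spink1l by 0.87 and 0.78. None of these passed. Without Nr4a3 replicate 2, relative Spink1 was higher by 1.35 than with GFP and by 0.97 than in untreated islets. Relative Spink1l was then higher by 1.22 and 1.16, each of the 4 values with a standard error of 0.65. Their limma adjusted p was 0.352 against GFP and 0.703 against untreated islets. The moderation gives every gene the same standard error on this scale, 0.60, and with each gene's own variance, added after the data were seen, that of Spink1 was 0.35 and the adjusted p against GFP was 0.306. Without a test, relative Spink1 with Nr4a1 was higher than with GFP by 1.11 and relative Spink1l by 1.197, each with separate ranges. So had 2 of the 20 enzymes, Cela2a and Cpb1, and these 4 were the only such genes (0.0281% of all genes). Nothing is read from this, because it is the comparison behind the choice.

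Relative to the enzymes the Reg genes did not share that pattern. Relative Reg3a was -0.29 to 0.79 with Nr4a1 and -0.09 to 0.66 with Nr4a3, against 0.39 to 1.94 with GFP and 0.67 to 2.30 in untreated islets. Every Nr4a3 array was thus below every untreated array, as in 0.0281% of all genes, and the difference of -1.27 (95% interval -2.45 to -0.08) did not pass (limma adjusted p = 0.619). Without Nr4a3 replicate 2 this difference was -1.22 ± 0.65 (SE). Against GFP relative Reg3a with Nr4a3 differed by -1.02 (-2.20 to 0.17), relative Reg3g by -0.42 (-1.61 to 0.76), relative Reg1a by -0.01 (-1.196 to 1.17) and relative Reg3b by 0.15 (-1.03 to 1.33). The intervals above use the standard error of 0.60 that every gene shares on this scale. They do not measure the spread of each Reg gene. With each gene's own variance, added after the data were seen, the 95% interval of relative Reg3a against GFP was -1.76 to -0.27. Against untreated islets it was -2.02 to -0.52, and neither difference passed. Against GFP that of relative Reg3g was -1.68 to 0.84, of relative Reg1a -0.53 to 0.50 and of relative Reg3b -0.57 to 0.87. The direct difference between Spink1 and Reg3a was not tested.

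**Figure D4:**
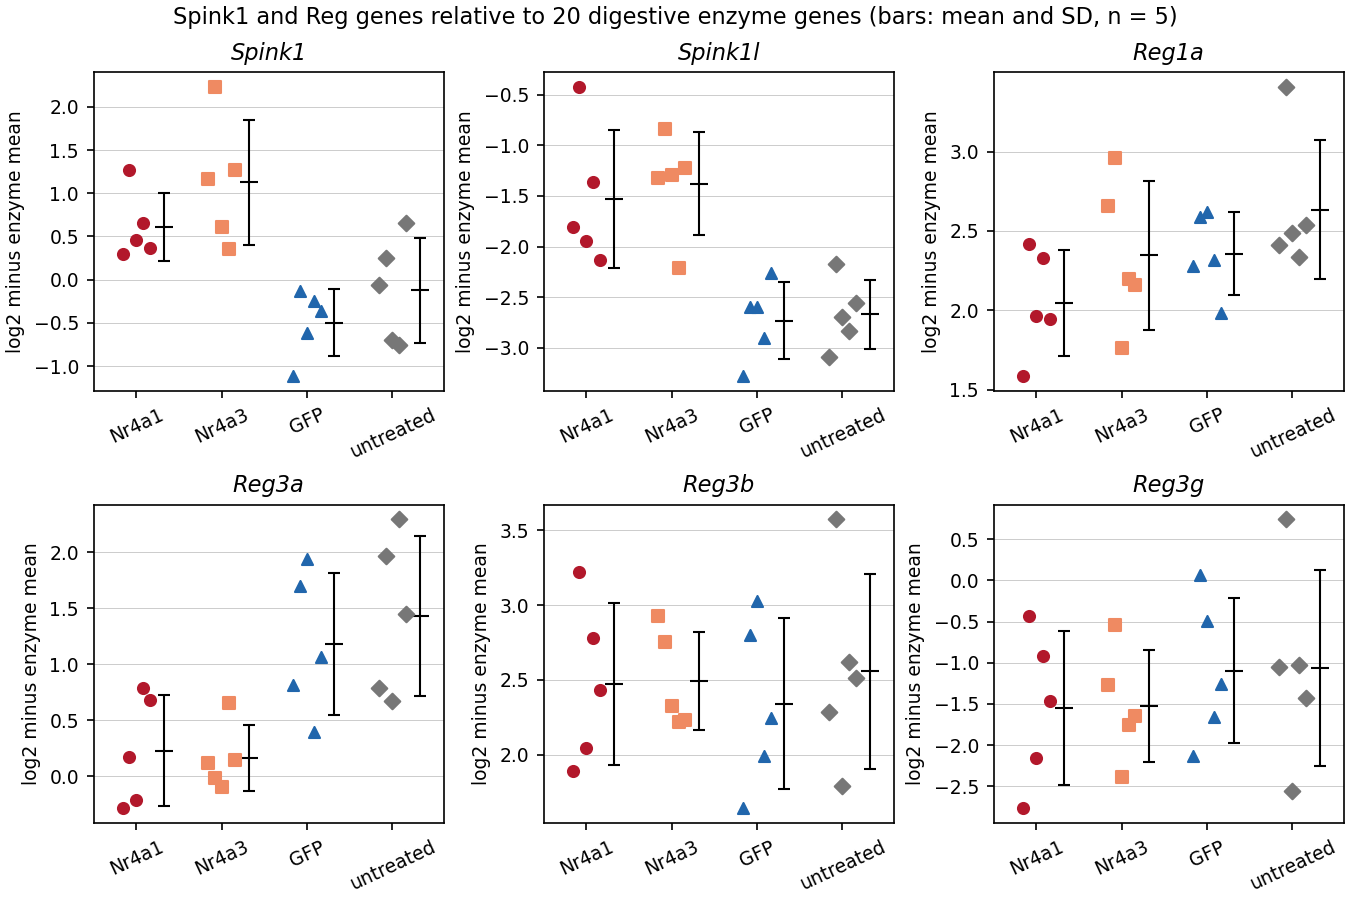
Log2 intensity of each gene minus the mean of 20 digestive enzyme genes on the same array, 1 point per array, with the mean and SD of 5 arrays. Spink1 and Spink1l are above GFP on every Nr4a1 and Nr4a3 array, and Reg3a is mostly lower with either receptor than in the control groups.

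Likeness was measured as Pearson's r of deviations from the group means over 20 arrays, among 7109 genes. These were genes at or above the median gene (7.81, log2 intensity), with the 6 genes included whatever their brightness. Of the 6, Spink1l, at 7.05 on average, was below that median. The genes most like Spink1 were Spink1l (0.95), Ctrc, the chymotrypsin C gene (0.95), Reg1a (0.94), Prss3b, a trypsinogen (0.93), and Pnliprp2, a pancreatic lipase relative (0.93). Those most like Spink1l were Spink1, Ctrc (0.90), Reg3b (0.89), Reg1a (0.89) and Pnliprp2 (0.89). Those most like Reg3b were Reg1a (0.93), Reg3g (0.91), Spink1 (0.91), 1810009J06Rikl (0.90) and Gp2, the major zymogen granule membrane glycoprotein (0.90). Without the 2 arrays farthest from the median, untreated 5 among them in each case, these r lay between 0.80 for Pnliprp2 with Spink1l and 0.91 for Spink1 with Spink1l. Among the 15 pairs of the 6 genes r ranged from 0.71 to 0.95.

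The genes around the inhibitors were set beside all genes with Nr4a3 against GFP, of which 1.75% were called higher. Of 13 measured genes of trypsin activation and defence, 1 rose, A2m, the broad protease scavenger alpha-2-macroglobulin (log2 0.91 ± 0.20, limma adjusted p = 0.0207), with a list median of 0.01. Against untreated islets A2m differed by 0.81 and did not pass (adjusted p = 0.0501). A2m averaged 7.28 ± 0.44 (SD, log2 intensity) with Nr4a3, 6.51 ± 0.39 with Nr4a1, 6.36 ± 0.16 with GFP and 6.47 ± 0.32 in untreated islets. Of the other Kazal inhibitors, Spink4, Spink5 and Spink8 were measured and differed by -0.17 to 0.16, and 0 of 3 passed, nor did any have an unadjusted p under 0.05 with limma. Their mean stayed at 4.75 to 5.10 on every array.

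Secretory genes of the acinar cell gave 2 calls among 11 with Nr4a3 against GFP, where 1.75% of all genes were called higher. Serpini2, a pancreatic serpin, rose by log2 1.02 ± 0.22 (limma adjusted p = 0.0178), and Cuzd1, a zymogen granule membrane gene, rose by 0.54 ± 0.14 (adjusted p = 0.0416), with a list median of 0.46. Of 7 acinar transcription factors 1 rose, Xbp1, which drives the secretory endoplasmic reticulum, by 0.47 ± 0.10 (adjusted p = 0.0130). Xbp1 also rose against untreated islets by 0.53 (adjusted p = 0.00636), where 1.23% of all genes were called higher. Against untreated islets Serpini2 differed by 0.81 (adjusted p = 0.0786) and Cuzd1 by 0.41 (adjusted p = 0.155), and neither passed. The median of the transcription factor list with Nr4a3 against GFP was 0.00.

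The cytokine route to Reg genes gave 1 call among 24, and it was a fall. Il6r, the interleukin-6 receptor chain, fell by 0.62 on the log2 scale with Nr4a3 (limma adjusted p = 0.0369, list median -0.03), where 0.176% of all genes were called lower. Against untreated islets it differed by -0.53 and did not pass (adjusted p = 0.0966). It averaged 8.42 ± 0.31 (SD, log2 intensity) with Nr4a3, 8.09 ± 0.34 with Nr4a1, 9.04 ± 0.16 with GFP and 8.95 ± 0.17 in untreated islets. Il1r1, the interleukin-1 receptor, differed by -0.63 and did not pass (adjusted p = 0.0886). Of 23 genes of acinar injury and the acute phase 0 passed with limma, and 0 had an unadjusted p under 0.05. Nupr1, a stress gene of pancreatitis, averaged 9.22 ± 0.45 with Nr4a3, 9.62 ± 0.22 with Nr4a1, 9.85 ± 0.57 with GFP and 10.21 ± 0.85 in untreated islets.

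Some markers of other cells passed with Nr4a3 against GFP, where 1.75% of all genes were called higher and 0.176% lower. Of 13 duct cell genes, Car2, a carbonic anhydrase, rose by log2 1.59 (limma adjusted p = 0.000168) and Cdh1, the epithelial cadherin, fell by 0.43 (adjusted p = 0.00264) with Nr4a3 against GFP. Of 13 beta cell genes 1 fell, Gipr (-0.64, adjusted p = 0.00563), and of 10 endothelial genes 2 fell, Kdr (-1.09, adjusted p = 0.0340) and Flt1 (-0.72, adjusted p = 0.0158). Among 8 genes of other islet hormone cells, 13 of fibroblasts and stellate cells and 14 of macrophages and leukocytes 0 passed with limma, and 1, a fibroblast gene, had an unadjusted p under 0.05. By that measure 7 of the 10 endothelial and 5 of the 13 beta cell genes were lower, where 12.8% of all genes were called. Against untreated islets 5 of the 10 endothelial genes passed, all lower, where 213 of 14218 genes passed in either direction, 175 of them higher. There all 10 had an unadjusted limma p under 0.05, as did 14% of all genes. Summed linear intensity of the enzyme list was 37503 to 91588 with Nr4a1, 18675 to 33090 with Nr4a3, 4302 to 26709 with GFP and 4562 to 57665 in untreated islets, and the dimmest enzyme, Klk1, averaged 4.73 (log2) over all arrays. Summed endothelial intensity was 1428 to 2125 with Nr4a1, 1710 to 2244 with Nr4a3, 2354 to 3711 with GFP and 2665 to 4426 in untreated islets. The part of these cell types in the values of Spink1 and the Reg genes was not tested.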

How the data were processed

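RNA of 20 samples was measured on 1 Affymetrix rat array each. The deposited values are probe set intensity on a linear scale, which the authors obtained with RMA, which by design removes background, quantile-normalizes the arrays and condenses probes to probe sets, so levels are relative between arrays (per the submitters' processing notes, version not stated); log2 was taken with no further scaling. Of 31099 probe sets, 9831 had no gene symbol in the array's probe table, 436 several and 20832 a single one; 20764 matched current symbols by gene identifier. The brightest probe set by mean over the arrays stood for each of 14218 genes. limma 3.58.1 (R 4.3.3) fitted 1 mean per group to all 20 arrays, with 16 residual and 3.63 prior degrees of freedom, and moderated two-sided tests were adjusted across all genes within each comparison (Benjamini-Hochberg, adjusted p under 0.05). The fit was tested on simulated data. Same-numbered arrays of different groups did not deviate together (median r of -0.03 over 30 pairs, 7 over 0.1), so numbers were not taken as pairs. The 6 genes, the 13 gene lists (172 of 206 entries measured), the tests and the alternatives were chosen with earlier results of these data known. Genes named were all 6 with every probe set, Prss1, of each list genes of smallest adjusted p with Nr4a3 against GFP, and the 5 genes most like Spink1, Spink1l and Reg3b. Alternatives were the arrays fitted, variance, weights, normalization, filters, probe set choice, enzyme scale and each array left out. Promoter sequences are RefSeq's (GRCr8); 6 of 6 genes matched. The number of arrays limits the precision.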

Additional observations from a re-analysis of the deposited data

Results flagged for a closer look

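Among 56 sets of 5 values examined (each probe set and each relative value in each group), 2 held an array far from the others of its group, and chance alone gives such a gap in about 1 in 20 sets. Untreated replicate 5 read 11.9 (log2 intensity) on the Reg3a probe set, where the other 4 untreated arrays read 9.38 to 9.55. Untreated replicate 2 stood at 3.41 for Reg1a minus the enzyme mean, where the other 4 stood at 2.33 to 2.54.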

How the results depend on the processing

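The count of genes called among the 6 depended on the setting. With Nr4a3 against GFP it was 1 (Spink1l), it was 0 with only the arrays compared, with the replicate block and with dim genes left out (Spink1l itself is below that limit), and 2 with array weights and with probe sets averaged per gene (Spink1 and Spink1l), and 0 to 2 when single arrays were left out. Against untreated islets it was 0, and 0 to 2 when single arrays were left out. The replicate block changed no other call of the 6 genes. The dimmest Spink1 probe set against untreated islets, at 1.41, lost its call with only the arrays compared, and the filter on dim probe sets left it out. Genes called in all moved from 274 to 122 with only the arrays compared, 135 without dim genes and 971 with array weights for Nr4a3 against GFP (127 to 527 with an array left out), and from 213 to 27, 127 and 375 against untreated islets (93 to 539). Signs reversed under array weights for Reg3g against untreated islets (-0.060) and relative Reg3b against GFP (-0.051), and for relative Reg3b also with Prss1 in place of the enzyme mean (-0.33). Leaving out single arrays reversed signs within these ranges of Nr4a3 against GFP: Reg3a -0.36 to 0.23, relative Reg1a -0.17 to 0.13, relative Reg3b -0.025 to 0.32. For Nr4a3 against untreated islets they were Reg1a -0.19 to 0.70, Reg3g -0.27 to 0.47 and relative Reg3b -0.26 to 0.19. For GFP against untreated islets they were Spink1l -0.79 to 0.13, Reg3g -0.90 to 0.038, relative Spink1l -0.18 to 0.077, relative Reg3b -0.41 to 0.038 and relative Reg3g -0.40 to 0.42. The causes were not tested.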
